A study of Mus musculus with 9 samples.

Results

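Fgfr1, Fgfr2, Fgfr3 and Flrt3 are described here across melanocytes sorted from mouse epidermis. Fgfr1, Fgfr2 and Fgfr3 encode receptors for fibroblast growth factors, and Flrt3 encodes a transmembrane protein with leucine-rich and fibronectin repeats that binds those receptors. The 4 genes were chosen by their names and are 4 of the 16299 genes in the deposited table. Krt5 and Krt14, the keratin pair of basal keratinocytes, stand beside them as a gauge of keratinocyte RNA in the sorted material.

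The study sequenced RNA of melanocytes, the pigment cells of skin, purified by flow cytometry, in 3 groups of 3 libraries. The control tail group came from the tail epidermis of Spry1flox/flox mice, which carry floxed copies of Spry1, a feedback inhibitor of receptor tyrosine kinase signalling. Melanocytes of the knockout tail and knockout back groups were taken from tail and back epidermis, respectively, of Spry1flox/flox k14-Cre-ERT2 mice, so the floxed allele is common to all 9 libraries. The comparisons ask how melanocytes of the tail differ with the genotype, and how those of back and tail differ within the knockout genotype. The Cre recombinase is fused to an oestrogen receptor domain and is driven by the keratin 14 promoter, which is active in keratinocytes, so the recombination is aimed at the neighbours of the sorted cells. The dose and timing of the inducing drug, the age of the mice, and whether replicates came from separate animals are not given in the sources consulted, so the p-values here reflect only how far these libraries spread, which may be technical. With no control back group, genotype and skin region cannot be told apart in the comparison of knockout back with control tail.

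As background, a fibroblast growth factor binds its receptor together with heparan sulphate, the receptors pair and phosphorylate each other, and the adaptor Frs2 and its partners pass the signal to the Ras and ERK cascade. Sprouty and Spred proteins, among them the product of Spry1, act back on that cascade. In skin, keratinocytes are known for the IIIb forms of Fgfr2 and Fgfr3. The IIIb form of Fgfr2 binds ligands from the dermis such as Fgf7 and Fgf10. Mesenchymal and neural crest derived cells are known mainly for Fgfr1. Flrt3 also binds Unc5 and latrophilin receptors on other cells and acts in cell adhesion and in guidance of migrating cells.

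On the mouse build GRCm38, with GENCODE vM21 annotation and positions counted from 1, Fgfr1 (ENSMUSG00000031565.18) lies on chromosome 8 from 25513654 to 25575718, plus strand. Fgfr2 (ENSMUSG00000030849.18) lies on chromosome 7 from 130162451 to 133123350, minus strand, a span that includes a transcript starting far upstream. Fgfr3 (ENSMUSG00000054252.18) lies on chromosome 5 from 33721674 to 33737068, plus strand. Flrt3 (ENSMUSG00000051379.12) lies on chromosome 2 from 140650914 to 140671469, minus strand. Annotated exons of Fgfr1 overlap those of Gm16159 and exons of Fgfr3 those of G630022F23Rik, both on the opposite strand, and exons of Fgfr2 overlap those of Ctbp2 on the same strand. The strand setting of the counting is not given in the sources used here; hence reads of such partners cannot be told apart. No exon of another gene overlaps Flrt3.

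The deposited table has 1 row for Fgfr2, which sums its splice forms. The form typical of keratinocytes and the form typical of mesenchymal cells bind different ligands, and the gene-level values below cannot say which was read.

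The deposited values are on a log2 scale, and the whole counts behind them were recovered for 16296 of the 16299 genes. Library totals of recovered counts ran from 63.4 to 67.9 M in control tail and in the knockout tail libraries 1 and 2, and from 45.7 to 57.1 M in the other 4. Before deposit, a shift of each gene between 2 sets of libraries had been removed: knockout tail 3 and knockout back 3 form the smaller set, and the other 7, with all controls, the larger. Values are therefore given both as deposited and as normalised counts, which are recovered counts scaled by each library's size factor and still contain that shift. Genes with a recovered count of 0 numbered 4628 and 6127 in knockout back 1 and 2, and 854 to 1739 elsewhere. The summed normalised count of 5 melanocyte markers ran from 517674 to 537754 in control tail, from 576027 to 690015 in knockout tail and from 714881 to 841190 in knockout back, so the sorted cell type was present in every library. Spry1 itself was read at 1510, 1074 and 1285 normalised counts in the controls, at 3590, 1758 and 587 in the knockout tail libraries, and at 2283, 0 and 746 in knockout back. Because the Cre is aimed at keratinocytes, these values do not check the labels. In bulk RNA, fewer cells of a type and less RNA per cell cannot be told apart.

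Flrt3 was the most abundant of the 4 genes for its length, followed by Fgfr1, with Fgfr2 and Fgfr3 far lower. Levels between genes are compared as normalised counts per kilobase of the union of exons of coding transcripts (5215 bases for Fgfr1, 5115 for Fgfr2, 4399 for Fgfr3 and 4530 for Flrt3). Over the 9 libraries the mean level per kilobase was 1456 ± 770 for Flrt3, 311 ± 222 for Fgfr1, 63.1 ± 103 for Fgfr3 and 48.2 ± 63.2 for Fgfr2 (SD, n = 9). Flrt3 stood above Fgfr1 in 9 of 9 libraries, by 1.98-fold to 11-fold, and Fgfr1 stood above Fgfr2 in 9 of 9. Fgfr1 stood above Fgfr3 in 8 of 9, the exception being knockout back 1, with 272 for Fgfr3 and 110 for Fgfr1. Fgfr2 stood above Fgfr3 in 5 of 9 libraries and equalled it, both at 0, in 1, so the order of these neighbours did not hold beyond their spread. By mean normalised count over all libraries, not corrected for length, Flrt3 stood at the percentile 89.5 of 16296 genes, Fgfr1 at 64.2, Fgfr3 at 33 and Fgfr2 at 31.4.

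**Figure D1:**
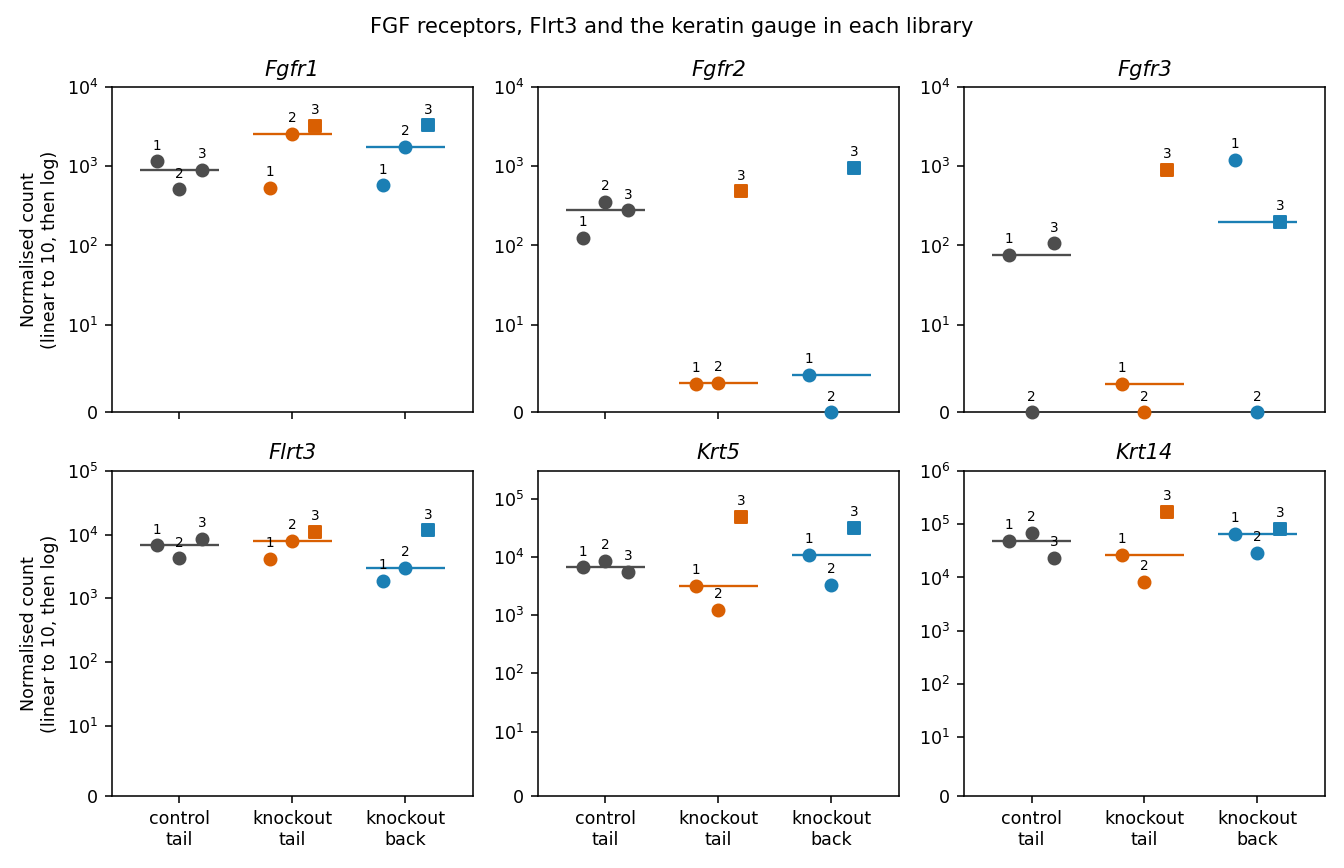
Normalised count (vertical axis, linear up to 10 and logarithmic above) of Fgfr1, Fgfr2, Fgfr3, Flrt3, Krt5 and Krt14 in each library, by group. Points are libraries with their replicate number, squares are the 2 libraries of the smaller set, and bars are group medians; Fgfr2 lies between 124 and 357 in control tail and at or below 4.31 in 4 of the 6 knockout libraries.

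None of the 4 genes passed the test in any of the 3 comparisons. The test was limma on the deposited values, fitted to the 9 libraries together, with Benjamini-Hochberg adjustment over all genes and a threshold of 0.05. Against this background it called 0 genes (0%) between knockout tail and control tail, with 814 (4.99%) at an unadjusted p under 0.05. It called 244 (1.5%) between knockout back and knockout tail, and 163 (1%) between knockout back and control tail. With the library set as a further term the counts were 10 (0.0614%), 71 (0.436%) and 545 (3.34%). The comparisons share libraries, so each gene's differences are given side by side and are not independent. Differences below are on the deposited log2 scale, which flattens at low counts, so the change of a sparsely read gene is understated. The removal of the shift made the set means equal in every gene without allowance for group, and all controls are in the larger set. It can thus take out part of a knockout difference, and the SEs leave out the removed shift. With the shift put back the SE of Fgfr1, Fgfr2, Fgfr3 and Flrt3 was 0.66, 0.71, 0.80 and 0.60, against 0.49, 0.34, 0.73 and 0.38. The exact permutation test of 3 against 3 libraries cannot give a p below 0.1.

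Fgfr1, the receptor read most, spread more widely within each knockout group than the group means differed. Its normalised count was 1160, 514 and 897 in control tail libraries 1 to 3. It was 532, 2598 and 3265 in the knockout tail libraries, and 576, 1773 and 3305 in knockout back. In each knockout group library 1 lay among the controls and libraries 2 and 3 above every control, so the groups overlapped. The group means were 857 ± 325, 2132 ± 1425 and 1885 ± 1368 (SD, n = 3 each). On the deposited scale, where the third library of each knockout group had been moved down with its set, Fgfr1 stood at 11.00 ± 0.39, 11.36 ± 0.85 and 11.23 ± 0.57 (SD, n = 3 each). Knockout tail minus control tail was 0.35 (SE 0.49; 95% confidence interval -0.77 to 1.47; limma adjusted p = 1). Knockout back minus knockout tail was -0.12 (SE 0.49; interval -1.24 to 1.0; limma adjusted p = 0.91), and knockout back minus control tail 0.23 (SE 0.49; interval -0.89 to 1.35; limma adjusted p = 0.8). These intervals still allow an increase of about 1 log2 unit in each comparison, and values as low as -0.77, -1.24 and -0.89 in the same order.

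Fgfr2 was read in every control library and hardly at all in 4 of the 6 knockout libraries. Its recovered counts were 157, 431 and 343 in the controls, 4, 4 and 419 in the knockout tail libraries, and 4, 0 and 983 in knockout back. As normalised counts these are 124, 357 and 278 in the controls, 3.23, 3.38 and 484 in the knockout tail libraries, and 4.31, 0 and 963 in knockout back. The 4 low libraries are all the knockout libraries of the larger set, and the 2 highest libraries of all 9 are those of the smaller set, so the normalised counts of the groups overlapped. A count of 4 has an exact Poisson 95% interval of 1.09 to 10.2 counts, and the 0 in knockout back 2 allows up to 3.51 normalised counts (3 counts); both cover counting error only.

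A recovered count of 4 was common for other genes too. In each of the 7 libraries of the larger set 4 was the most frequent count above 0, with 94 to 581 genes at 4 against 29 to 67 at 3 and 38 to 95 at 5, while in both libraries of the smaller set it was 1. What gave this count was not tested. A pattern like that of Fgfr2, with at most 4 counts in the 4 knockout libraries of the larger set and at least 100 in the other 5, was found in 15 of 16296 genes (0.092%), Fgfr2 included. This pattern was defined after its values were seen and is a description.

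On the deposited scale the Fgfr2 groups were 10.10 ± 0.33 in the controls, 8.96 ± 0.10 in the knockout tail libraries and 9.13 ± 0.51 in knockout back (SD, n = 3 each). Here the knockout tail and control tail libraries did not overlap, nor did those of knockout back and control tail. Such a gap with knockout lower was found in 1527 genes (9.37%) for knockout tail and in 3398 genes (20.8%) for knockout back. The absence of overlap rests on the removal of the shift, which for Fgfr2 was 1.53 (smaller set minus larger set, log2), larger than that of most genes (percentile 94.1 of the absolute shift). Knockout tail minus control tail was -1.13 (SE 0.34; interval -1.91 to -0.36; limma p = 0.0092 before and 0.7 after adjustment; exact permutation p = 0.1). Knockout back minus control tail was -0.97 (SE 0.34; interval -1.75 to -0.19; limma p = 0.02 before and 0.12 after adjustment; exact permutation p = 0.1). Knockout back minus knockout tail was 0.16 (SE 0.34; interval -0.61 to 0.94; limma adjusted p = 0.82). On normalised counts the exact permutation p was 0.4 for each knockout group against control tail.

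How Fgfr2 was called depended on the 2 libraries of the smaller set. With a term for the library set added, the difference from control tail was -1.31 for knockout tail (limma adjusted p = 0.41) and -1.15 for knockout back (limma adjusted p = 0.1). On recovered counts limma-voom, which fits log2 CPM and so does not flatten low counts, gave -3.66 for knockout tail and -4.09 for knockout back (SE 2.73 and 2.75; adjusted p = 1 and 0.4). With the set term added to limma-voom the values were -6.52 and -6.57 (SE 1.36 and 1.37; adjusted p = 0.21 and 0.055); their size depends on the small offset given to counts near 0. With the removed shift put back on the deposited scale it was -0.62 for knockout tail and -0.46 for knockout back (limma adjusted p = 1 and 0.78). With the larger set alone, Fgfr2 fell by 1.26 in knockout back against control tail (limma adjusted p = 0.043) and passed the threshold, as did 2371 genes (14.5%; 11.1% as lower) in that fit, while knockout tail minus control tail was -1.19 (limma adjusted p = 0.44). Without knockout back 3 alone, the difference between knockout back and control tail was also -1.26 (limma adjusted p = 0.028), in a fit that called 2804 genes (17.2%). The fits with the shift put back and with the larger set alone were chosen after seeing the data.

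Fgfr3 was the most uneven of the 4 genes, absent from 1 library of every group. Its recovered counts were 97, 0 and 131 in the controls, 4, 0 and 790 in the knockout tail libraries, and 1113, 0 and 203 in knockout back. As normalised counts these are 76.5, 0 and 106 in the controls, 3.23, 0 and 913 in the knockout tail libraries, and 1199, 0 and 199 in knockout back. Library 2 was at 0 in each group, which allows up to 2.48, 2.53 and 3.51 normalised counts, and the highest values were in knockout back 1 and knockout tail 3, so all groups overlapped. A check on deposited values did not show pairing of the libraries by replicate number and could not exclude it. The group means were 60.9 ± 54.7, 306 ± 526 and 466 ± 642 (SD, n = 3 each), with an SD close to or above the mean throughout. On the deposited scale knockout tail minus control tail was -0.10 (SE 0.73; interval -1.74 to 1.55; limma adjusted p = 1). Knockout back minus knockout tail was 0.45 (SE 0.73; interval -1.19 to 2.10; limma adjusted p = 0.76), and knockout back minus control tail 0.36 (SE 0.73; interval -1.29 to 2.00; limma adjusted p = 0.79).

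Flrt3 was well read in every library, and knockout back 1 and 2 had the lowest levels. Its normalised count was 6770, 4273 and 8575 in control tail. It was 4201, 7941 and 11031 in the knockout tail libraries, and 1861, 3043 and 11673 in knockout back. The back libraries 1 and 2 lay below all others and knockout back 3 above all others, so the groups overlapped. The group means were 6540 ± 2160, 7724 ± 3420 and 5526 ± 5356 (SD, n = 3 each).

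On the deposited scale Flrt3 stood at 13.32 ± 0.47 in the controls, 13.11 ± 0.46 in the knockout tail libraries and 12.38 ± 0.60 in knockout back (SD, n = 3 each). Knockout tail minus control tail was -0.22 (SE 0.38; interval -1.07 to 0.64; limma adjusted p = 1). Knockout back minus knockout tail was -0.73 (SE 0.38; interval -1.58 to 0.13; limma p = 0.086 before and 0.3 after adjustment; exact permutation p = 0.3). Knockout back minus control tail was -0.94 (SE 0.38; interval -1.80 to -0.09; limma p = 0.034 before and 0.16 after adjustment; exact permutation p = 0.2). Within the larger set the last difference was -1.24 (limma adjusted p = 0.097). The median difference of all genes between knockout back and control tail was -0.23, also below 0. The sparse knockout back libraries 1 and 2 were those with the lowest Flrt3; the part of their low complexity in this value was not tested.

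**Figure D2:**
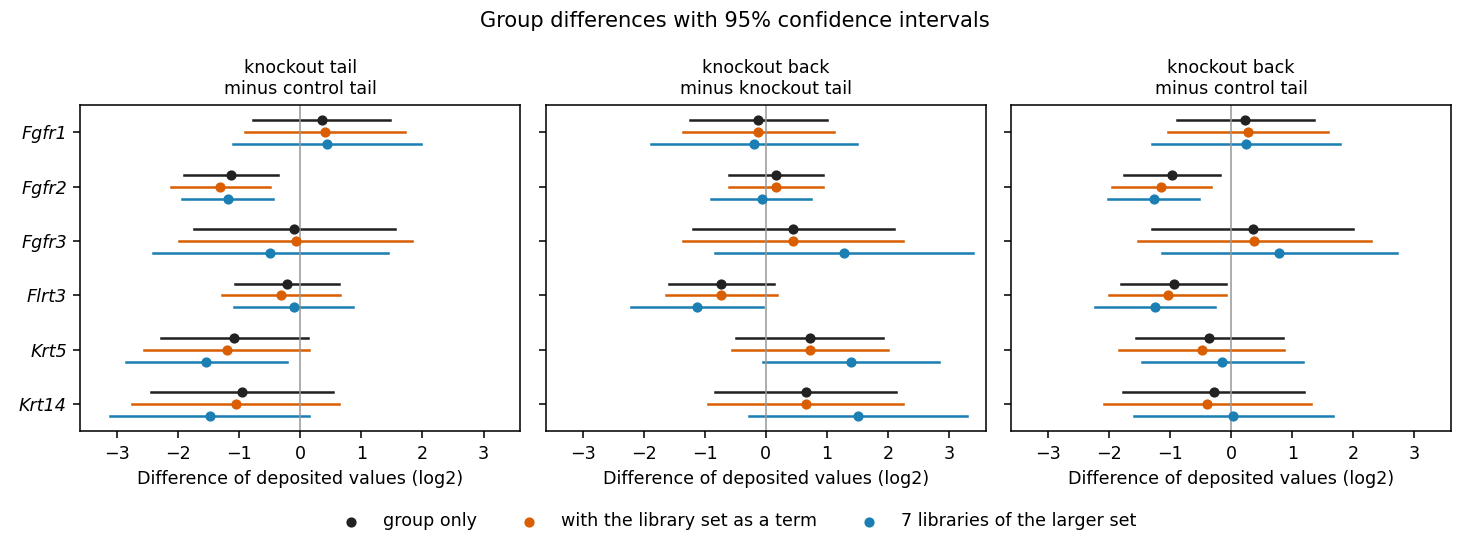
Difference of deposited values between groups (horizontal axis, log2) for the 4 genes and the keratin gauge, in 3 comparisons. Points are estimates and lines 95% confidence intervals, from limma with group only, with the library set as a term, and in the larger set alone. The intervals are not adjusted for the number of genes. Fgfr2 intervals lie below 0 in both comparisons with control tail (-1.13 and -0.97 with group only), and Flrt3 intervals for knockout back minus control tail. In the larger set alone, so do those of Flrt3 for knockout back minus knockout tail and of Krt5 for knockout tail minus control tail. Those of Fgfr1 and Fgfr3 include 0 throughout.

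The keratin gauge moved widely within groups. Krt5 was read at 6643, 8583 and 5543 normalised counts in control tail, at 3217, 1252 and 48852 in the knockout tail libraries, and at 10783, 3366 and 31872 in knockout back. Krt14 was read at 49089, 68147 and 23434 in control tail, at 26753, 8333 and 173342 in the knockout tail libraries, and at 65570, 29212 and 82980 in knockout back. The 2 libraries of the smaller set had the highest levels of both keratins, and knockout tail 2 the lowest. The summed level of 10 basal keratinocyte markers ran from 45762 to 105401 in control tail, from 18162 to 338664 in knockout tail and from 50216 to 199368 in knockout back. That of 10 markers of differentiated keratinocytes ran from 27894 to 113382, from 14582 to 166727 and from 38553 to 215070. Neither keratin passed the limma test: for Krt5 the differences were -1.08, 0.72 and -0.36 (SE 0.53 each; adjusted p = 1, 0.47 and 0.7) for knockout tail minus control tail, knockout back minus knockout tail and knockout back minus control tail. For Krt14 they were -0.95, 0.66 and -0.29 (SE 0.65 each; limma adjusted p = 1, 0.6 and 0.81).

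No relation of the 4 genes to the keratins passed the test after adjustment. Fgfr3 was at 0 in control tail 2, the control with the most Krt5, and in knockout tail 2 and knockout back 2, which had less Krt5 than any control. Fgfr2 was at 4.31 normalised counts in knockout back 1, a sparse library with 4628 genes at 0 and 399 at 4 counts. It was at 3.23, 3.38 and 0 in knockout tail 1, knockout tail 2 and knockout back 2, where Krt5 was lowest (3217, 1252 and 3366). The libraries of the smaller set, knockout tail 3 and knockout back 3, had the most Fgfr2 (484 and 963) and the most Krt5 (48852 and 31872). Across the 9 libraries, on log2 of the normalised count plus 1, Pearson's r with Krt5 was 0.72 for Fgfr2 (exact permutation p = 0.031, 0.12 adjusted over 8 relations; Spearman's rho 0.80, exact p = 0.014, 0.11 adjusted). It was 0.74 for Fgfr3 (exact permutation p = 0.022, 0.12 adjusted; rho 0.73, exact p = 0.034, 0.12 adjusted). For Fgfr1 it was 0.29 (exact permutation p = 0.44, 0.59 adjusted; rho 0.27, exact p = 0.49, 0.55 adjusted), and for Flrt3 0.33 (exact permutation p = 0.39, 0.59 adjusted; rho 0.35, exact p = 0.36, 0.55 adjusted). The 8 relations are 4 genes by 2 keratins. On the deposited values the r with Krt5 was 0.42 for Fgfr2 (exact permutation p = 0.26) and 0.65 for Fgfr3 (exact permutation p = 0.066).

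With Krt14 the r was 0.59 for Fgfr2 (exact permutation p = 0.091, 0.18 adjusted; rho 0.70, exact p = 0.043, 0.12 adjusted) and 0.63 for Fgfr3 (exact permutation p = 0.064, 0.17 adjusted; rho 0.51, exact p = 0.17, 0.34 adjusted). It was 0.09 for both Fgfr1 (exact permutation p = 0.82, 0.82 adjusted; rho 0.23, exact p = 0.55, 0.55 adjusted) and Flrt3 (exact permutation p = 0.81, 0.82 adjusted; rho 0.25, exact p = 0.52, 0.55 adjusted). Without knockout tail 2 and 3, the libraries farthest from the keratin median, the r with Krt5 was 0.66 for Fgfr2, 0.57 for Fgfr3, 0.46 for Fgfr1 and 0.40 for Flrt3. Within the 7 libraries of the larger set it was 0.51 for Fgfr2 (exact permutation p = 0.24) and 0.63 for Fgfr3 (exact permutation p = 0.13). It turned negative for Fgfr1, at -0.74 (exact permutation p = 0.055), and for Flrt3, at -0.46 (exact permutation p = 0.31). The positive values for Fgfr1 and Flrt3 over all 9 libraries therefore rest on the smaller set, which was high in these genes and in the keratins, and that set holds too few libraries for a value of its own. The smaller set minus larger set shift was 2.93 for Krt5, 1.89 for Krt14, 1.37 for Fgfr1, 1.19 for Fgfr3 and 1.19 for Flrt3 (log2).

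**Figure D3:**
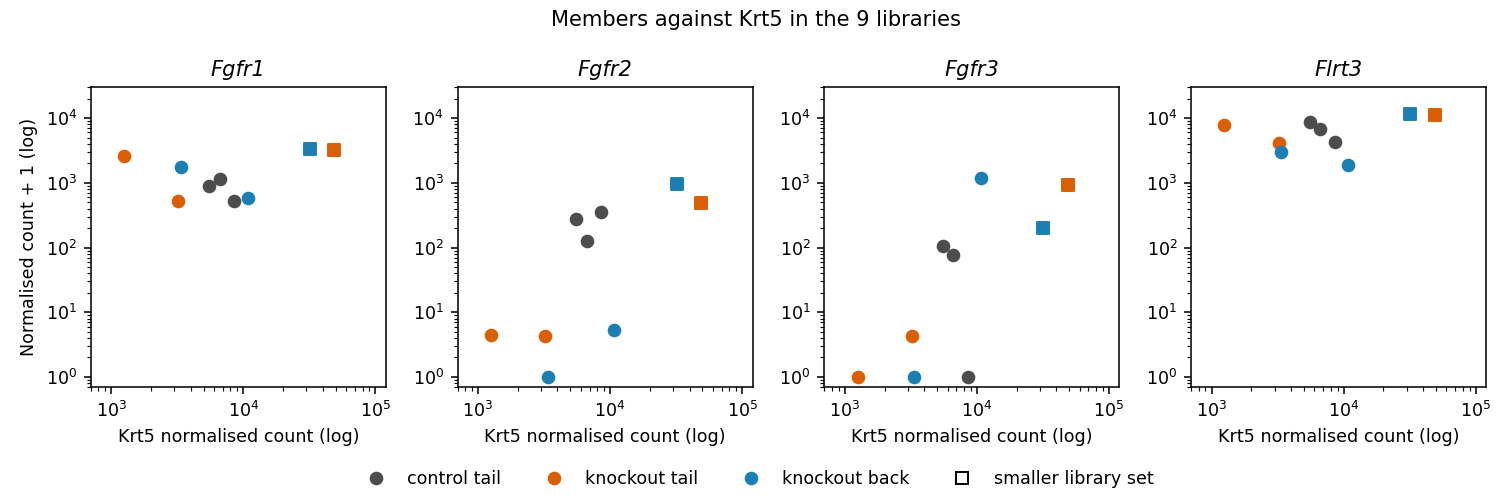
Normalised count plus 1 of each gene (vertical axis, log) against the Krt5 normalised count (horizontal axis, log) in the 9 libraries. Colours are groups and squares the 2 libraries of the smaller set. Fgfr2 in knockout back 1, a sparse library, is at 4.31 normalised counts, and Krt5 there, at 10783, is above all 3 controls. Knockout tail 1 and 2 and knockout back 2, also low in Fgfr2, have less Krt5 than any control, and the squares have the most of both.

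Set against keratin RNA library by library, Fgfr2 was again lowest in the 4 knockout libraries of the larger set. Per 1000 Krt5 counts it was 18.6, 41.6 and 50.1 in the controls, 1, 2.7 and 9.92 in the knockout tail libraries, and 0.399, 0 and 30.2 in knockout back. On this ratio all 3 knockout tail libraries lay below all 3 controls, as in 317 of 16296 genes (1.95%), while knockout back 3 lay among the controls. The gap was lost with the other keratin: per 1000 Krt14 counts Fgfr2 was 2.52, 5.23 and 11.8 in the controls and 0.121, 0.405 and 2.79 in knockout tail, so that knockout tail 3 lay above control tail 1. Such a gap on the Krt14 ratio was found in 288 genes (1.77%), Fgfr2 not among them. Knockout back 1, a sparse library with 4628 genes at 0, had more Krt5 than any control and 4 Fgfr2 counts. The other libraries low in Fgfr2, knockout tail 1 and 2 and knockout back 2, had less Krt5 than any control. Fgfr3 per 1000 Krt5 counts was 11.5, 0 and 19.1 in the controls, 1, 0 and 18.7 in the knockout tail libraries, and 111, 0 and 6.24 in knockout back, with no separation of the groups. Fgfr1 was 175, 59.9 and 162 in the controls, 165, 2075 and 66.8 in the knockout tail libraries, and 53.4, 527 and 104 in knockout back. Flrt3 was 1019, 498 and 1547 in the controls, 1306, 6342 and 226 in the knockout tail libraries, and 173, 904 and 366 in knockout back. For Fgfr1 and Flrt3 the highest ratio was in knockout tail 2, the library with the least Krt5. These ratios were looked at after the levels were known and carry no test. The cell of origin of each receptor's reads, keratinocyte or melanocyte, was not tested.

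The genes whose pattern over the 9 libraries was most like each of the 4 were taken by Pearson's r of log2 of the normalised count plus 1, among 11834 genes with a mean of at least 100 and reads in at least 7 libraries; this is a description with no test. For Fgfr1 they were Kansl2 (r = 0.935), Gbf1 (0.926) and Kansl2.ps (0.917). Kansl2.ps carries the name of a pseudogene of Kansl2, so reads of that pair may be shared. For Fgfr2 they were P4ha2, a collagen prolyl hydroxylase subunit (r = 0.998), Eef1b2, a translation elongation factor subunit (0.968), and Plekhb1 (0.957). P4ha2 was read at 102, 296 and 155 normalised counts in control tail, at 3.23, 3.38 and 467 in the knockout tail libraries, and at 4.31, 0 and 633 in knockout back, nearly the values of Fgfr2. For Fgfr3, which itself had reads in too few libraries to meet that rule, they were Gm49380 (r = 0.923), Naa50 (0.922) and Runx1, a transcription factor (0.913). For Flrt3 they were the transcriptional repressor Bcl6 (r = 0.954), Zfp442 (0.949) and the endoplasmic reticulum chaperone Hyou1 (0.946). Bcl6 and Zfp442 were at 0 in the sparse libraries knockout back 1 and 2. In knockout tail 1 they were at 3.23 and 2.42 normalised counts, and Bcl6 was at 2.48 in control tail 2. Their r thus draws on values near the floor. All points of these correlations share the library sets.

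Few other genes of the pathway passed the test, all in comparisons with knockout back, and no gene of the 6 pathway lists passed between knockout tail and control tail, with or without the library set as a term. Among the marker lists, the melanocyte gene Tyrp1 passed in that comparison with the set term (0.99; limma adjusted p = 0.048) and not without it (0.90; limma adjusted p = 0.59). Of 22 listed fibroblast growth factors, 8 were in the table. Their median difference between knockout tail and control tail was -0.55, with 6 of 8 below 0, against -0.05 over all genes. Fgf1 was at 0 in 4 of the 9 libraries, and Fgf9, Fgf13, Fgf18 and Fgf22 in 5 each. This median thus draws on genes near the floor. Between knockout back and knockout tail 1 of 8 was called, beside 1.5% of all genes. Fgf7, the dermal ligand of the IIIb form of Fgfr2, was read at 840, 780 and 728 normalised counts in knockout tail and at 4.31, 4.68 and 185 in knockout back. It fell by 1.76 on the deposited scale (SE 0.34; limma adjusted p = 0.045, and 0.081 with the library set as a term). The collagen gene Col1a2, a fibroblast marker, was called in the same comparison and fell by 1.90 (SE 0.36; limma adjusted p = 0.045, and 0.083 with the library set as a term; 1 of 9 fits that leave out a library). The summed level of the 5 fibroblast markers in the table ran from 2534 to 4395 in knockout tail and from 3958 to 10850 in knockout back. Of the knockout back sums of 6208, 10850 and 3958, Fbln1 alone gave 4529, 10450 and 1570. Among markers of other cells, the melanocyte gene Mlana rose by 0.95 (SE 0.12; limma adjusted p = 0.021) and the antigen presentation gene H2.Aa by 2.96 (SE 0.56; limma adjusted p = 0.045, and 0.071 with the library set as a term) in knockout back against knockout tail. Of the 8 melanocyte markers, 4 lay above 0 and 4 below in that comparison (median 0.00). Pmel (-0.94), Tyrp1 (-0.65) and Tyr (-0.56) were among those below, with 0 called lower. The part of fibroblasts and of such other cells in the Fgf7 value was not tested.

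Of 17 other receptors, co-receptors and binding proteins, 14 were in the table, among them the decoy receptor Fgfrl1, and 0 were called in each comparison. Their medians were -0.04, 0.22 and 0.01 for knockout tail minus control tail, knockout back minus knockout tail and knockout back minus control tail. Over all genes the medians were -0.05, -0.18 and -0.23. The most abundant by normalised count were the heparan sulphate proteoglycans Gpc1, Sdc3 and Sdc1, core proteins of the chains that hold ligand and receptor together. Sdc1 was read at 16646 to 29216 normalised counts in the 2 libraries of the smaller set and at 1282 to 11457 in the other 7, and Gpc1 at 9315 to 9694 against 11535 to 47544. With the library set as a term, Fgfbp3, a carrier of secreted fibroblast growth factors, also passed as lower in knockout back against control tail.

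A pair of genes on the list of Flrt3 relatives and partners was called lower in the back. Of 13 listed members of the FLRT family and its partners, 8 were in the table, and 2 of 8 were called as lower in knockout back in both comparisons. Over all genes 1.5% were called in either direction against knockout tail and 1% against control tail. Unc5c, a netrin receptor of the family that FLRT proteins bind, was read at 738, 461 and 763 normalised counts in control tail, at 777, 1020 and 1471 in the knockout tail libraries, and at 0, 0 and 86.2 in knockout back. It fell by 2.32 against knockout tail (SE 0.32; limma adjusted p = 0.023) and fell by 1.93 against control tail (SE 0.32; limma adjusted p = 0.045). Slit2, a secreted ligand of Robo receptors, was read at 345, 512 and 626 in control tail, at 1031, 1256 and 669 in the knockout tail libraries, and at 4.31, 1.17 and 6.86 in knockout back. It fell by 2.32 against knockout tail (SE 0.29; limma adjusted p = 0.021) and fell by 1.56 against control tail (SE 0.29; limma adjusted p = 0.0499). For both genes all 3 back libraries lay below all 6 tail libraries on normalised counts, as in 1042 of 16296 genes (6.39%). The 0 counts of Unc5c fell in the sparse libraries knockout back 1 and 2; the part of their low complexity in these calls was not tested, and in knockout back 3 both genes were also below every tail library. The list's median was -0.83 against knockout tail and -0.84 against control tail, with 6 and 7 of 8 genes below 0.

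Of 30 adaptors and effectors 29 were in the table and 0 were called, with medians of 0.11, -0.30 and 0.08 in the same order of comparisons. By normalised count Akt1 and Stat3 were among those read most. Of 12 feedback inhibitors 11 were in the table and 0 were called, with medians of 0.18, -0.22 and -0.20; the most abundant were Spred1, Errfi1 and Spry2. Errfi1, an inhibitor of the epidermal growth factor receptor, came nearest, at 1.45 in knockout back against control tail (SE 0.28; limma adjusted p = 0.053, and 0.038 with the library set as a term).

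All 13 listed targets of the ERK cascade were in the table, and they did not move one way. Between knockout back and knockout tail 2 were called higher and 1 lower, beside 1.5% of all genes called in either direction. For knockout back against control tail, with 1 called higher and 1 lower, the share over all genes was 1%. The immediate early transcription factor gene Egr1 rose by 2.43 (SE 0.28; limma adjusted p = 0.021) and Fos by 1.47 (SE 0.27; limma adjusted p = 0.04, and 0.074 with the library set as a term), while Ccnd1, the cyclin D1 gene, fell by 1.67 (SE 0.32; limma adjusted p = 0.048). Against control tail, Egr1 rose by 1.74 (SE 0.28; limma adjusted p = 0.042) and Ccnd1 fell by 2.36 (SE 0.32; limma adjusted p = 0.036). With the library set as a term, Dusp4, an ERK phosphatase gene, also passed as higher in knockout back against control tail (1.47; limma adjusted p = 0.048, and 0.059 without the term). Egr1 was read at 9023, 16132 and 21773 normalised counts in knockout tail and at 50645, 53439 and 200406 in knockout back. Egr1, Fos and Phlda1 were the most abundant of the list. The median of the list was -0.37, 0.48 and 0.32 in the same order of comparisons.

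**Figure D4:**
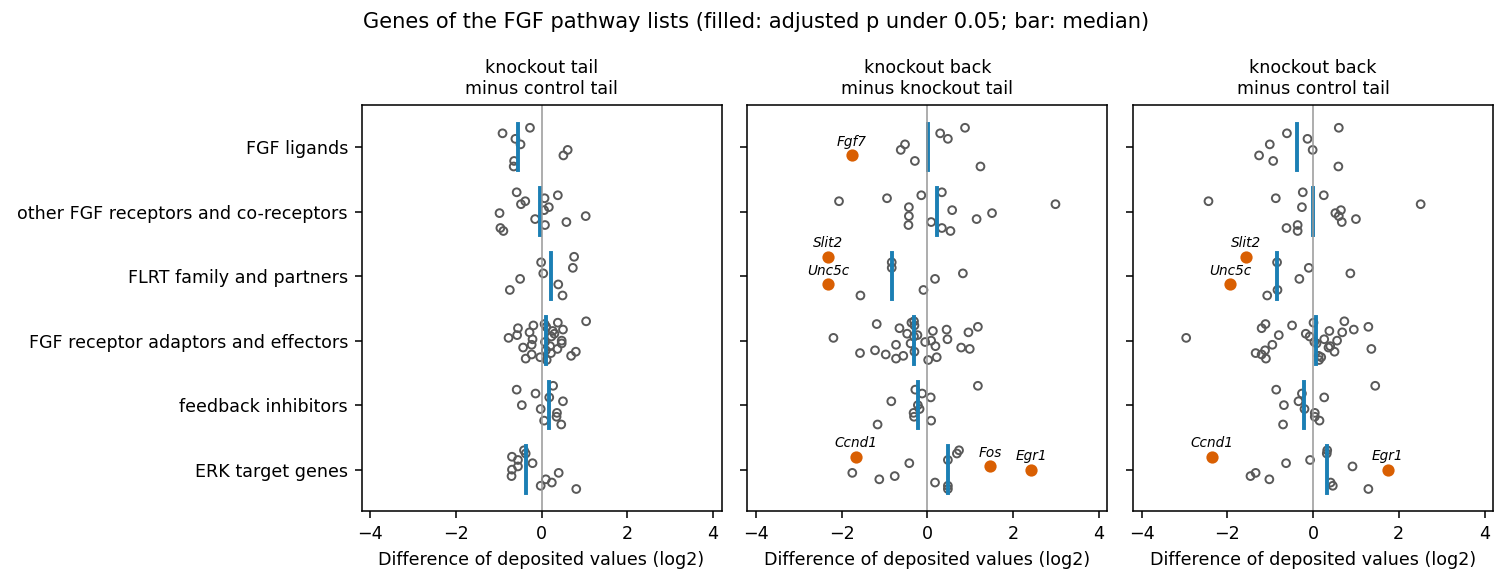
Difference of deposited values (horizontal axis, log2) of each gene of the 6 pathway lists in the 3 comparisons. Each point is a gene, filled points have a limma adjusted p under 0.05 and bars are list medians; Unc5c and Slit2 are filled on the low side in both comparisons with knockout back, and no point is filled between knockout tail and control tail.

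These calls of single pathway genes sat close to the threshold, and other settings or leaving out 1 library ended many of them. Of 7 other settings, Unc5c passed in 3 and Slit2 in 5 in each comparison, Fgf7 and Fos in 2, Egr1 in 5 against knockout tail and 4 against control tail, and Ccnd1 in 4 against knockout tail and 7 against control tail. Unc5c and Slit2 against knockout tail each passed in 4 of 9 such fits, with adjusted p up to 0.099 and 0.086, and their differences ran from -2.50 to -2.23 and from -2.49 to -2.21. Egr1 against knockout tail passed in 5 of 9, with adjusted p up to 0.078. Against control tail, Unc5c and Slit2 passed in 1 of 9, Ccnd1 in 2 and Egr1 in 3, and against knockout tail Fgf7 and Ccnd1 passed in 1 and Fos in 2; the highest adjusted p was 0.14. Control tail 1, knockout tail 1 and knockout back 1 were among the libraries whose absence ended each of these calls. Every one of these differences kept its sign in all 9 fits.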

How the data were processed

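The authors deposited 1 table of log2 values for 16299 genes in 9 libraries. Trizol-extracted RNA was, per the labels' protocols, sequenced in pairs from SMART-Seq v4 libraries; the submitters' processing notes name DESeq2 and GRCm38. No source consulted gives the aligner, the counting program or its strand setting. The values followed a variance-stabilising curve (7.98 at 0 counts), and set means agreed within 7.14e-09 in every gene, where the next best of 255 partitions differed by up to 1.50. Undoing curve and shift gave whole counts, within 0.004, for 16296 genes; Dct, Pmel and Tyrp1 could not be resolved. Tested on simulated data, recovery returned 1500 of 1500 genes exactly, with curve, sets and size factors given. The removed shift had a median size of 0.45 and exceeded 1 in 18.2% of genes.

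Main tests used limma 3.58.1 in R 4.3.3 (trend, robust; group only; 3 groups of 3). Alternatives were the library set as a term, a replicate block, limma-voom on recovered counts, a minimum mean of 10, a pseudocount of 10, and leaving out each library. The design had assumed log2 values, as found. Members and lists were chosen with earlier results of these data known. Named beyond the 4 genes were list genes past the threshold, the 3 most abundant of a list (1 such gene is not reported here), and the 3 genes most alike; Errfi1, Fgfbp3, Dusp4, Tyrp1 and Fgfrl1 were named after their values were seen. Other marker lists, in ranges of summed normalised count for control tail, knockout tail and knockout back, were endothelial and pericyte (1 of 5 markers; 146 to 620, 425 to 896, 113 to 1257), Langerhans and myeloid (6 of 7; 846 to 2437, 735 to 8749, 4965 to 19055), Merkel (2 of 4; 0 to 166, 0 to 945, 480 to 5788), hair follicle (4 of 5; 26163 to 90655, 11080 to 60131, 4039 to 62258), Schwann (4 of 5; 20318 to 23962, 17492 to 23983, 28572 to 49018) and blood (4 of 4; 457 to 6068, 1747 to 75441, 4250 to 19231). The part of these cells in the results was not tested.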

Additional observations from a re-analysis of the deposited data

How the results depend on the processing

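Of 192 differences of the 4 genes (12 results in 16 other settings), 171 kept their direction and their side of the threshold, 19 changed sign, and 2 passed the threshold, both for Fgfr2 in knockout back against control tail (-1.26 in the larger set only). The cause of changes was not tested. Genes called numbered 10 with the library set as a term and 6 with the shift put back for knockout tail against control tail. For knockout back against knockout tail they were 71 with the set term, 21 with the replicate block, 31 with the shift put back, 1637 in the larger set only and 3 to 1972 leaving out a library. For knockout back against control tail they were 545 with the set term, 42 with the replicate block, 322 by limma-voom, 421 by limma-voom with the set term, 2371 in the larger set only and 0 to 2804 leaving out a library. On deposited values 0 of 9 same-number pairs of libraries had a correlation over 0.1 (-0.70 to 0.08), and 1 of 9 libraries correlated best with its own number. The value of -0.70 was that of knockout tail 3 and knockout back 3. Equal set means place these libraries on opposite sides of the mean in every gene, so the check cannot exclude pairing by replicate number. The replicate block changed no call of the 4 genes.

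Signs changed with the shift put back for knockout tail against control tail in Fgfr3 (0.30) and Flrt3 (0.18, and 0.11 by limma-voom). For knockout back against knockout tail they changed by limma-voom in Fgfr1 (0.01) and Fgfr2 (-0.44), by limma-voom with the set term in Fgfr2 (-0.05), Krt5 (-0.27) and Krt14 (-0.30), and in the larger set only in Fgfr2 (-0.07). For knockout back against control tail they changed in Fgfr3 (-0.67 by limma-voom with the set term), Krt5 (0.64 by limma-voom, 0.62 with the shift put back) and Krt14 (0.31 by limma-voom, 0.34 with the shift put back, 0.03 in the larger set only). Correlations with Krt5 changed sign for Fgfr1 (-0.74 on deposited values and in the larger set only) and Flrt3 (-0.45 and -0.46). Those with Krt14 did so for Fgfr1 (-0.71 and -0.73) and Flrt3 (-0.57 and -0.58).

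Leaving out each library in turn, knockout tail minus control tail ran from -0.11 to 0.73 for Fgfr1, -1.32 to -1.0 for Fgfr2, -0.49 to 0.14 for Fgfr3 and -0.48 to -0.01 for Flrt3. Knockout back minus knockout tail ran from -0.5 to 0.33 for Fgfr1, -0.13 to 0.36 for Fgfr2, -0.45 to 0.92 for Fgfr3, -1.03 to -0.43 for Flrt3 and -0.02 to 1.19 for Krt14. Knockout back minus control tail ran from -0.06 to 0.51 for Fgfr1, -1.26 to -0.78 for Fgfr2, -0.54 to 0.82 for Fgfr3, -1.24 to -0.65 for Flrt3 and -0.74 to 0.04 for Krt14. The correlation with Krt14 ran from -0.26 to 0.5 for Fgfr1 and -0.2 to 0.33 for Flrt3.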

Other observations

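Akt1, a kinase downstream of the receptors, was at 935 and 1863 normalised counts in the 2 libraries of the smaller set and at 9536 to 45995 in the other 7. It was chosen from the pathway lists after its values were seen.

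Apart from Fgfr2, 14 genes had reads of the same kind across the 9 libraries. These had at most 4 counts in the larger-set knockout libraries and at least 100 elsewhere. They were Atp6v1c2, Cblc, Il15ra, Il1f5, Krt24, Lekr1, P4ha2, Plekhb1, Slc30a2, Sox21, Sox8, Tube1, X2810408A11Rik and X9230114K14Rik. Of these Krt24, a keratin gene, had the highest mean, at 827 normalised counts, followed by Il1f5 at 489 and Atp6v1c2 at 486. What the genes have in common was not tested.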
